A study of Arabidopsis thaliana with 6 samples.

Results

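The genes described here are those of the mitochondrial genome of Arabidopsis thaliana, taken as every row of the deposited count table whose identifier begins with ATMG. There were 161 such rows among 44200. The study sequenced polyadenylated RNA of whole plantlets, with 3 libraries labelled nsra/b (a double mutant of NSRa and NSRb, nuclear speckle RNA-binding proteins that act in alternative splicing) and 3 libraries of wild-type Col-0. The nsra/b plants carry T-DNA insertions in both genes in the Col-0 background. Per the labels, plantlets of both genotypes were moved at 14 days to mock MS medium, with no auxin, and collected 24 h later at 15 days, while the study's methods give a younger age at transfer. The methods describe the libraries of each genotype as biological replicates.

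Plant mitochondria keep a small genome of their own, which codes for core subunits of the respiratory complexes, for ATP synthase, for proteins of cytochrome c maturation, for some ribosomal proteins and for rRNAs and tRNAs. Its transcripts are processed inside the organelle: introns are spliced with the help of imported nuclear-encoded proteins, and many cytidines are edited to uridine. In plant mitochondria a poly(A) tail marks an RNA for decay rather than protecting it. A large piece of the mitochondrial genome was also copied into chromosome 2 of the nucleus in the Columbia accession, which matters for where a sequenced fragment is counted.

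The nucleotides shared by the mitochondrial and the nuclear copy are shown first, since they decide what the counts of these genes can say. The coding sequence of atp9, the membrane ring subunit of ATP synthase, is 225 nt long and lies on the minus strand of the mitochondrial genome of TAIR10.1, at positions 270961 to 271185. The same 225 bases, with no difference, lie on the minus strand of chromosome 2 at positions 3251856 to 3252080, within the exons of AT2G07671. The sequence is taken from RefSeq, and its 5 capitals mark the cytidines that RefSeq annotates as edited to uridine in the mitochondrial transcript.
atp9, both genomes: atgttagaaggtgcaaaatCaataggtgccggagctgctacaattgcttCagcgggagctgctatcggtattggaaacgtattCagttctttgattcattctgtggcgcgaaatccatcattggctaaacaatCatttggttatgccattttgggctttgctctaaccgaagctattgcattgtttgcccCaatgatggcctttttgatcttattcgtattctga

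The copy of rpl2, which codes for a protein of the large ribosomal subunit, is one of those that differ. Its first exon of 917 nt has 3 differences between the genomes. A window of 60 bases holds the first 2 of them, in capitals, at positions 222062 to 222121 of the mitochondrial genome (minus strand) and 3411669 to 3411728 of chromosome 2 (plus strand), within AT2G07715.
rpl2, mitochondrial genome: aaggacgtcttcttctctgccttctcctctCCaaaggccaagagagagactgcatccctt
rpl2, chromosome 2: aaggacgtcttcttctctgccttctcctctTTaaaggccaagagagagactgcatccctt
Both differences have cytidine in the mitochondrial genome and thymidine in the copy, the change that editing would also make in a transcript, and RefSeq annotates 0 edited cytidines in the window. Within the atp9 coding sequence the genomes offer no base that tells them apart.

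Every one of the 161 mitochondria-encoded rows was listed at 0 in each of the 3 libraries labelled nsra/b and in each of the 3 Col-0 libraries. The 12 rows that the naming rule would have taken for the highest mean are therefore tied at 0, and no row can be put above another. The libraries held 25936176, 30758283 and 29848192 counts for nsra/b, against 27152846, 32578330 and 30249052 counts for Col-0. At these depths a count of 0 allows a level of up to 3 counts, or between 0.0921 and 0.1157 CPM (counts scaled to library size) in a single library, for fragments assigned to that row. It covers counting error only, and it does not limit the RNA of a gene whose fragments were placed on another locus. No mitochondria-encoded row passed the filter on low counts, so none was tested and no fold change is given.

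The plastid-encoded rows, with identifiers beginning ATCG, were at 0 in the same way, 134 of 134 in all 6 libraries. Of the 37512 rows of the 5 nuclear chromosomes, 27.2% were at 0 in every library, between 24.6% on chromosome 1 and 30.6% on chromosome 2. Of the 6393 loci assembled de novo from the reads, 34.4% were at 0. The rows of both organelle genomes thus stood apart from the other rows of the table in both genotypes alike. The organelle genes are listed among the counted features. Whether the organelle genomes were part of the sequence the reads were aligned to is not given in the sources used here, and the origin of the zeros was not tested.

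**Figure D1:**
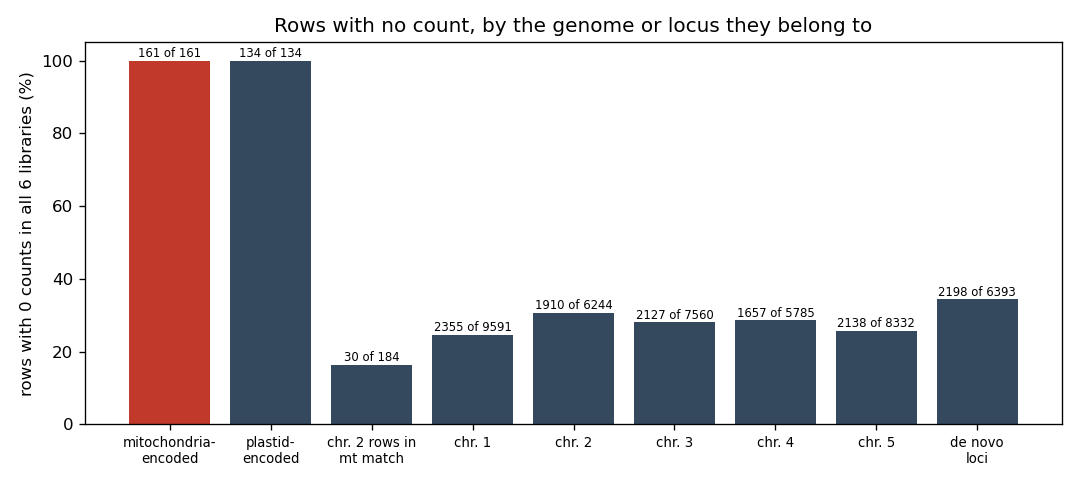
Share of rows (%, vertical axis) with 0 counts in all 6 libraries, for rows of the mitochondrial and plastid genomes, chromosome 2 rows that match the mitochondrial genome, the 5 nuclear chromosomes and the de novo loci, with the number of rows over each bar. All 161 mitochondria-encoded and 134 plastid-encoded rows were at 0, against 30 of 184 matching rows inside the stretch on chromosome 2.

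The nuclear copy carries most of the mitochondrial genes. In TAIR10.1, 17 matches of at least 1000 nt to the mitochondrial genome filled 99.6% of a stretch of 270.7 kb on chromosome 2, between positions 3239038 and 3509765. They held 205 mismatches in 288136 aligned nt, an identity of 99.93%, or 1 mismatch per 1406 nt. Of the 367808 nt of the mitochondrial genome, 72.9% had a match on chromosome 2.

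By coding sequence, 16 of the 33 protein-coding genes were identical on chromosome 2 from start to stop: atp1, the longer atp6, atp8 and atp9 of ATP synthase; cob of complex III; cox3 of complex IV; nad2, nad3, nad4 and nad6 of complex I; ccmC and ccmFC of cytochrome c maturation; and the ribosomal protein genes rpl5, rps4, rps7 and rps12. A further 6 matched over their whole length with a few differences. These were matR, which codes for a maturase, with 5 mismatches, rpl2 with 3, nad7 and ccmFN1 with 1 each, and ccmFN2 and mttB with a gap each. The coding sequences of atp4, ccmB, cox1 and nad9 matched over less than 5% of their length, and the other 7 were matched in part, between 12.2% for rps3 and 73.8% for nad1. The 3 rRNA genes had at most 0.4% of their length matched.

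RefSeq annotates 575 edited cytidines in the mitochondrial coding sequences, and 264 of them lie in the 16 genes with an identical copy. The number differed widely between genes, with 52 sites in nad4 and 34 in ccmC, against 1 in rps7. The highest density among the 33 genes was that of ccmB, with 82.1 sites per kb. The reads themselves were not used here, so editing was not measured in these libraries.

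**Figure D2:**
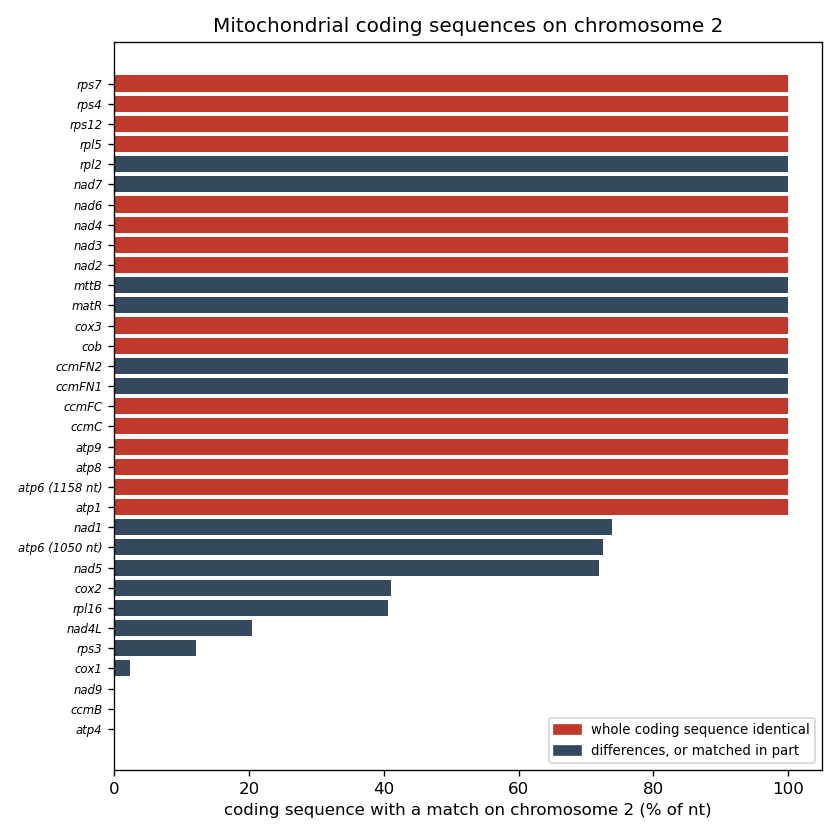
Share of each mitochondrial coding sequence (% of nt, horizontal axis) with a match on chromosome 2, for the 33 protein-coding genes. Bars in red mark the 16 that are identical over their whole length, and atp4, ccmB and nad9 have no match.

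Counts were present on the nuclear copy, while its mitochondrial counterpart was at 0. Inside the stretch, 184 annotated rows had at least 90% of their exon nt matched to the mitochondrial genome, and 154 of them had a count in some library, up to 144. Summed over the 184 rows, the libraries labelled nsra/b had 1226, 1173 and 1170 counts, against 1048, 1426 and 1366 counts in Col-0. Scaled to library size, the nsra/b libraries had 47.3 CPM (95% exact binomial interval 44.66 to 49.99), 38.1 CPM (interval 36.0 to 40.4) and 39.2 CPM (interval 37.0 to 41.5). The Col-0 libraries had 38.6 CPM (interval 36.3 to 41.0), 43.8 CPM (interval 41.5 to 46.1) and 45.2 CPM (interval 42.8 to 47.6). These intervals cover counting error within a library only, and those of the first and second nsra/b libraries do not overlap. The genotypes overlapped, since of the nsra/b libraries the first lay above all Col-0 libraries, the second below all of them and the third between the first and the second Col-0 library. Which genome the fragments came from cannot be told apart from these counts.

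The annotation of 54 of these rows names a mitochondrial gene, either as the closest match or as the gene the row is a pseudogene of. In this way 52 of the 161 members are named. The 54 rows, of which 48 had a count, summed to 605, 593 and 591 counts in nsra/b, against 521, 758 and 742 counts in Col-0. No row of the stretch names the other 109 members. The annotations of the 52 are the only link between an ATMG identifier and a gene name used below. Counts below are of whole rows, which can be longer than the coding sequence. AT2G07727, for example, has 3243 nt of exon, against 1182 nt for cob. How many of the counts on a row lie on coding sequence was not analysed.

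Among copies of ATP synthase genes, AT2G07698 (chromosome 2, 3361463 to 3364127), which the annotation pairs with ATMG01190, subunit 1, held the most counts of all rows in the stretch. It had 128, 106 and 114 counts in nsra/b, against 104, 144 and 139 counts in Col-0. The groups overlapped, and the log2 fold change was -0.10 ± 0.12 (SE; adjusted p = 0.652, edgeR quasi-likelihood test). AT2G07671, paired with ATMG01080, F0 subunit 9 (the atp9 sequence above), had 99, 88 and 91 counts in nsra/b, against 59, 96 and 83 counts in Col-0. The log2 fold change was 0.28 ± 0.14 (SE; edgeR adjusted p = 0.207), and the groups overlapped again. Another row annotated for subunit 9, AT2G07777 (ATMG01090), had 27, 37 and 21 counts in nsra/b, against 30, 33 and 36 counts in Col-0. The row for subunit 8, AT2G07707 (ATMG00480), had 28, 20 and 28 counts in nsra/b, against 21, 33 and 24 counts in Col-0. The row for subunit 6, AT2G07741 (ATMG00410), had 15, 12 and 12 counts in nsra/b, against 11, 16 and 16 counts in Col-0.

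For complex III, AT2G07727 (chromosome 2, 3449534 to 3452776; ATMG00220, apocytochrome b, the haem protein at the core of that complex) had 42, 41 and 27 counts in nsra/b, against 47, 51 and 53 counts in Col-0. Its raw counts were lower in each nsra/b library than in each Col-0 library, but the groups overlapped once scaled to library size. It had 1.28 ± 0.36 CPM in nsra/b and 1.69 ± 0.10 CPM in Col-0 (SD, n = 3 each). The log2 fold change was -0.41 ± 0.19 (SE; edgeR adjusted p = 0.174). It was the only row of the stretch with an unadjusted p under 0.05 in edgeR, and it did not pass the threshold after adjustment.

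Of the copies of complex IV genes, AT2G07687 (ATMG00730, cytochrome c oxidase subunit 3) had 18, 12 and 16 counts in nsra/b, against 9, 25 and 17 counts in Col-0. For complex I, AT2G07751 (ATMG00990, NADH dehydrogenase 3) had 16, 13 and 15 counts in nsra/b, against 10, 24 and 37 counts in Col-0. The spread of AT2G07751 lay mainly among the Col-0 libraries, and its log2 fold change was -0.63 ± 0.32 (SE; edgeR adjusted p = 0.202). The identical copy of nad4 is spread over 2 rows that together had 72, 51 and 64 counts in nsra/b, against 56, 71 and 87 counts in Col-0. Most of these lay on AT2G07718, with 46, 44 and 53 counts in nsra/b, against 45, 57 and 60 counts in Col-0. That row has 5799 nt of exon and is paired by the annotation with ATMG00590, cytochrome b/b6 protein. How many of its counts lie on nad4 sequence was not analysed. The rows assigned to nad2 and nad6 had at most 10 counts in any library. Those of nad2 have 645 and 759 nt of exon, against 1467 nt of coding sequence.

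Among copies of ribosomal protein genes, AT2G07675 (ATMG00980, ribosomal protein S12) had 21, 18 and 24 counts in nsra/b, against 15, 38 and 32 counts in Col-0. AT2G07725 (ATMG00210, ribosomal protein L5) had 19, 17 and 15 counts in nsra/b, against 14, 23 and 22 counts in Col-0. AT2G07715, which holds the rpl2 copy with its 3 differences, had 20, 22 and 30 counts in nsra/b, against 22, 30 and 33 counts in Col-0. None of these separated the genotypes. Of the cytochrome c maturation genes, the ccmFC copy had 34, 31 and 41 counts over 2 rows in nsra/b, against 20, 26 and 34 counts in Col-0. The ccmC copy on AT2G07771 had a single count over all 6 libraries. Another row paired with the same member (ATMG00900), AT2G07681, had 2, 1 and 3 counts in nsra/b, against 2, 5 and 6 counts in Col-0.

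**Figure D3:**
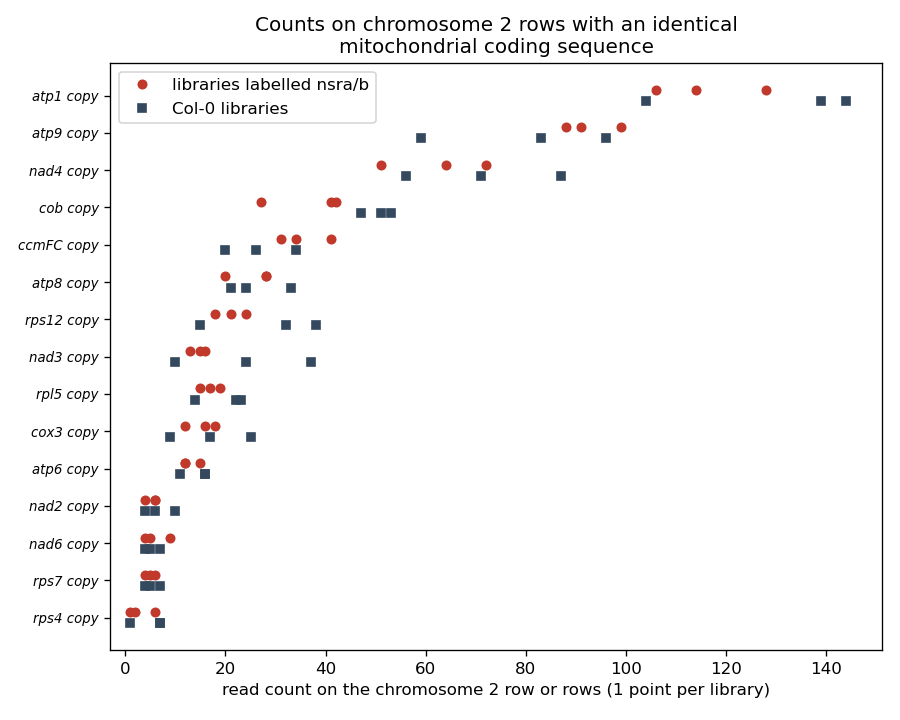
Read counts (horizontal axis) on the chromosome 2 row or rows assigned to an identical copy of a mitochondrial coding sequence, 1 point per library, with the libraries labelled nsra/b as circles above the Col-0 squares, for 15 of the 16 genes (ccmC, with 1 count in all on AT2G07771, is left out). Counts are of whole rows, which can be longer than the coding sequence or, for nad2, cover only part of it. For cob the nsra/b circles lie between 27 and 42 counts and the Col-0 squares between 47 and 53, and in the other genes the groups overlap.

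Some rows of the stretch that code for no protein also held counts. AT2G00460, annotated as another RNA of 780 nt, had 104, 106 and 85 counts in nsra/b, against 102, 117 and 108 counts in Col-0. AT2G07792, a tRNA of 75 nt, had 84, 93 and 83 counts in nsra/b, against 73, 107 and 70 counts in Col-0. Over the stretch, 4241 of the 7409 counts lay on protein-coding rows and 572 on tRNA rows. No level per length is given for rows as short as a tRNA, and where in them the reads lie was not analysed here.

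Of the 184 rows, 39 passed the filter and none was called at an adjusted p under 0.01, by edgeR, DESeq2 or limma voom. At an unadjusted p under 0.05, edgeR gave 1 row and DESeq2 0. Over all 21606 rows tested, 8.86% were called, 5.28% higher and 3.58% lower in nsra/b, and in 30% the genotypes did not overlap in CPM, against 0 of the 39. The 39 log2 fold changes ran from -0.63 to 0.54, with a median of -0.10. Their median standard error was 0.296, and for none of the 39 did the 95% interval lie within a 1.2-fold change either way. A change larger than that was therefore not excluded for any of them. Rows chosen by identifier, AT2G07660 to AT2G07839, gave 0 called of 32 tested. Of these 151 rows, 20 were not among the 184 and held 6583 of their 12217 counts. The tested rows include ABCC13 (AT2G07680) and MCM5 (AT2G07690), nuclear genes that lie outside the stretch.

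Nuclear genes whose products work with the mitochondrial ones were measured far more deeply. A selection of 45 nuclear genes of oxidative phosphorylation (OXPHOS) was used, 2 of them for cytochrome c and the others for subunits of the complexes. All 45 passed the filter, with mean levels between 4.83 and 247.8 CPM. None was called by edgeR, against 8.86% of all rows, and none by DESeq2 or limma voom. An unadjusted p under 0.05 was reached by 2 in edgeR and 2 in DESeq2, against 26.7% and 17.3% of all rows tested in these tools. Their median log2 fold change was 0.013, and the median absolute value was 0.024, against 0.077 over all rows tested. For 42 of the 45 the 95% interval lay within a 1.2-fold change either way.

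By complex, the median log2 fold change was 0.005 over 14 subunits of complex I, 0.002 over 3 of complex II, -0.012 over 9 of complex III, 0.022 over 8 of complex IV and 0.015 over 9 of complex V. CYTC-2 (AT4G10040), one of the genes for cytochrome c, the carrier between complexes III and IV, came nearest to the threshold. It had 13.9, 15.2 and 14.0 CPM in nsra/b, against 13.30, 12.70 and 12.03 CPM in Col-0, a log2 fold change of 0.19 ± 0.06 (SE; edgeR adjusted p = 0.0424). The gene for the complex V beta subunit AT5G08670, a partner of the protein made from mitochondrial atp1, had 249.8, 256.0 and 236.8 CPM in nsra/b, against 249.1, 246.8 and 247.3 CPM in Col-0.

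A selection of 22 nuclear genes of mitochondrial RNA metabolism, which make and process the transcripts of the organelle, gave 0 calls by edgeR, against 8.86% of all rows, and 0 by DESeq2 and limma voom. An unadjusted p under 0.05 was reached by 3 in edgeR and 1 in DESeq2, against the same 26.7% and 17.3%. Their log2 fold changes ran from -0.14 to 0.38 with a median of -0.014. MGP3 (AT1G68990), the gene for an organellar RNA polymerase of the phage type, had 26.5, 25.2 and 23.7 CPM in nsra/b, against 27.1, 24.0 and 24.7 CPM in Col-0. Maturase gene AT1G74350, of the proteins that help group II introns splice, had 3.58, 3.35 and 3.33 CPM in nsra/b, against 2.34, 3.14 and 2.34 CPM in Col-0. All nsra/b values of AT1G74350 lay above those of Col-0, but its log2 fold change of 0.38 ± 0.13 did not pass the threshold (SE; edgeR adjusted p = 0.0536). The editing factors MORF1, MORF3 and RIP1 had log2 fold changes between -0.09 and -0.04.

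Of 11 genes known to be induced when mitochondrial function is disturbed, or to regulate that response, 4 rose in nsra/b and none fell, or 36.4% called against 5.28% of all rows called higher. DESeq2 and limma voom also called 4. The list was chosen with earlier results of these data known, so its share cannot serve as a test against all rows. AOX1A (AT3G22370), the alternative oxidase that passes electrons to oxygen without complexes III and IV, had 66.3, 67.0 and 67.7 CPM in nsra/b, against 54.6, 52.0 and 52.5 CPM in Col-0. Every nsra/b library lay above every Col-0 library, with a log2 fold change of 0.34 ± 0.03 (SE; edgeR adjusted p = 1.929e-09).

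HSP23.6-MITO (AT4G25200), a small heat shock protein of the mitochondrion, had 2.08, 2.60 and 2.37 CPM in nsra/b, against 0.632, 0.555 and 0.725 CPM in Col-0. It had the largest change of the 11, a log2 fold change of 1.89 ± 0.20 (SE; edgeR adjusted p = 1.298e-08). AT5G51440, which codes for another small heat shock protein, had 306, 331 and 360 counts in nsra/b, against 182, 217 and 225 counts in Col-0, with a log2 fold change of 0.72 ± 0.08 (SE; edgeR adjusted p = 1.173e-08). BCS1 (AT3G50930), an ATPase of the AAA family in the mitochondrial outer membrane, had 4.08, 5.01 and 5.27 CPM in nsra/b, against 3.01, 3.17 and 3.16 CPM in Col-0, with a log2 fold change of 0.62 ± 0.12 (SE; edgeR adjusted p = 0.0002034).

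The other 7 were not called. NDB2 (AT4G05020), an external NADH dehydrogenase, had a log2 fold change of 0.18 ± 0.05 (SE; edgeR adjusted p = 0.0212). NAC017 (AT1G34190), a transcription factor of the response, had 54.4, 57.6 and 53.7 CPM in nsra/b, against 54.8, 56.4 and 56.7 CPM in Col-0. AT5G09570 was sparse, with 8, 15 and 0 counts in nsra/b, against 13, 15 and 8 counts in Col-0. Changes of the 4 called genes stood beside 45 OXPHOS and 22 RNA metabolism genes with none called, and the mitochondrial transcripts themselves gave no value to set against them.

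**Figure D4:**
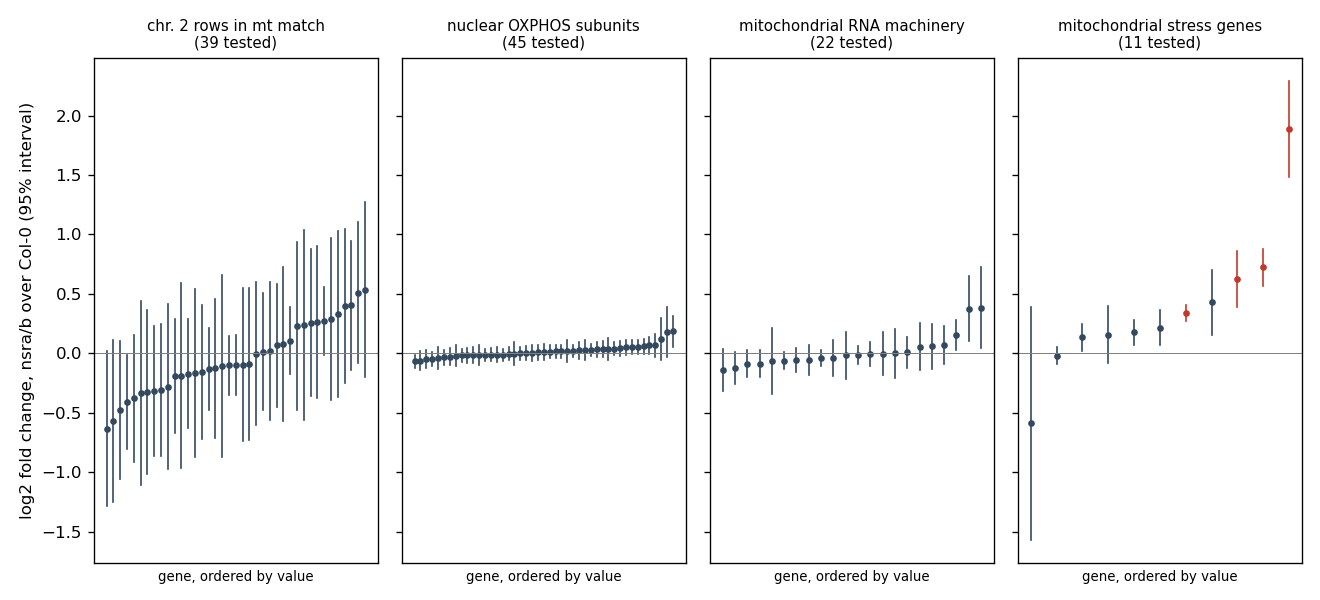
Log2 fold change of nsra/b over Col-0 (vertical axis) with its 95% interval for each row tested, ordered by value within 4 lists: 39 chromosome 2 rows that match the mitochondrial genome, 45 selected nuclear OXPHOS genes, 22 selected genes of mitochondrial RNA metabolism and 11 mitochondrial stress genes. Red marks an adjusted p under 0.01 (edgeR), which 4 stress genes reached.

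The directions above rest on the labels. AT1G76940 (NSRa) had 4987, 5898 and 5577 counts in the libraries labelled nsra/b, against 396, 519 and 441 counts in Col-0, and AT1G21320 (NSRb) had 81, 78 and 88 counts in nsra/b, against 17, 25 and 25 counts in Col-0. Both were higher in the libraries labelled as mutant for them. Where the insertions lie in the genes is not given in the sources used here, so a count over the whole gene does not test for loss of the protein. Fewer cells of a type and less RNA per cell cannot be told apart in whole plantlets. Summed over 4 shoot markers the libraries had 15400 to 16000 CPM in nsra/b, against 15000 to 15600 CPM in Col-0, and over 5 root markers 147 to 153 CPM in nsra/b, against 153 to 160 CPM in Col-0. CA1 and GLDP1 of the shoot list were called higher in nsra/b, with log2 fold changes of 0.25 and 0.23, and PHO1 of the root list was called lower, at -0.13. The 3 floral markers summed to between 6.27 and 6.94 CPM in nsra/b, against 9.73 to 10.3 CPM in Col-0. PI, the one floral marker tested, was called lower, with a log2 fold change of -0.64. None of the shoot, root or floral markers was at 0 throughout, and the part of these differences in the stress genes was not tested.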

How the data were processed

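Stranded libraries of polyadenylated RNA were sequenced in pairs. The authors aligned the reads with tophat, keeping a single alignment per read, and counted pairs per gene by strand (summarizeOverlaps, Union mode) over the Araport11 annotation, to which cufflinks assemblies had been added. They deposited raw counts, which are whole numbers with no normalization. The submitters' processing notes name the TAIR10 build; RefSeq TAIR10.1 was used here for names, positions and sequences. All 6 columns were used and 0 columns belonged to other samples.

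Mitochondrial and nuclear sequences were compared with BLAST 2.17.0 (matches of at least 200 nt and 95% identity). A row inside the matching stretch of chromosome 2 counted as a copy where at least 90% of its exon nt matched, a choice made after seeing the data. Genes passing filterByExpr (minimum count 10, minimum total 15), 21606 of 44200, were tested with edgeR 4.0.16 (TMM, quasi-likelihood test, genotype only, Benjamini-Hochberg adjusted p under 0.01), in R 4.3.3. DESeq2 1.42.0, limma 3.58.1 (voom), other scalings and filters, a replicate block and leaving out each library were alternatives. The test was checked on simulated counts. Replicates of a genotype differed by more than sampling noise (chi-square per degree of freedom 1.37 to 1.93), so all were counted. Named genes were all called members, the 12 members of highest mean, the called genes of each other list (at most 6, by size of change) and both NSR genes. The chromosome 2 rows, CYTC-2, AT5G08670, MGP3, AT1G74350, NDB2, NAC017 and AT5G09570 were named after their values were seen. Members and lists were chosen with earlier results of these data known.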

Additional observations from a re-analysis of the deposited data

How the results depend on the processing

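The mitochondria-encoded and plastid-encoded rows gave 0 calls under every scaling, filter, test and threshold tried, and whichever library was left out, since they hold no counts. For the same reason their share of all counts stayed at 0 CPM with nuclear rows as the denominator, and between 0 and 0 CPM with a library left out. Leaving out the rRNA rows was not run, as no annotation used here marks them among the identifiers. Adding the counts of the chromosome 2 rows that match the mitochondrial genome brought it to 41.97 CPM over all libraries. Of 316 values recomputed under an alternative, 312 kept their direction and side of the threshold, or stayed within 1.5 times as counts. The 316 include the values of the organelle rows, which could not change under another test or scaling. They also include the chromosome 2 rows chosen by position and by identifier, with 131 rows in common. The exceptions among the 316, beside the share with chromosome 2 rows added, were all changes of threshold. At an adjusted p under 0.05, 1 OXPHOS gene and 7 stress genes were called higher, and 1 stress gene passed when a log2 fold change of 1 or more in size was also required. Leaving out a library gave between 4 and 5 stress genes called higher.

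Replicate numbers were not treated as pairs in the main test. The deviations of same-numbered libraries from their genotype means correlated at -0.012, 0.025 and 0.056, and a replicate block gave 2093 calls over all rows, against 1914 without it. With the block, 4 stress genes and 0 genes of every other list were called higher. Depth limits the chromosome 2 rows most, with a median standard error of 0.296 on the log2 scale, against 0.0314 for the nuclear OXPHOS genes. The 0 counts of the organelle rows limit only fragments assigned to those rows.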
